A study of Mus musculus with 6 samples.

Results

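Among cells sorted as T cells from mouse brain tumors, 166 droplets carried the transcripts of monocytes and no transcript of the CD3 complex: 134 at day 13 and 32 at day 19, out of 13545 droplets that passed the depth and mitochondrial limits on both days together. A droplet, identified by its cell barcode, was taken when it held at least 5000 gene UMIs, at most 10% mitochondrial UMIs, no UMI of Cd3d, Cd3e or Cd3g, and at least 3 UMIs of Vcan, Chil3 and F13a1 together. It also had to lie outside the deposited lists of assembled T cell receptor (TCR) contigs of its day, hold no UMI of Gpnmb and P2ry12, and at most 1 of Cd209a. A UMI marks 1 captured RNA molecule. The last 3 genes mark foamy or lipid-laden macrophages, microglia and type 2 dendritic cells, and removed 108 droplets at day 13 and 21 at day 19 that met the rest of the rule. The monocytes made up 13.2% (exact 95% binomial interval 11.2 to 15.4%) of the 1017 droplets without a Cd3 UMI at day 13 and 9.33% (6.47 to 12.9%) of the 343 at day 19. The sort can set this share.

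Classical monocytes leave the bone marrow through the chemokine receptor CCR2, carry Ly-6C on their surface, circulate in blood and enter inflamed tissue and tumors. There they can become macrophages or cells that resemble dendritic cells, gaining complement C1q, apolipoprotein E or MHC class II as they do. Vcan encodes the matrix proteoglycan versican, Chil3 a secreted chitinase-like protein and F13a1 a subunit of coagulation factor XIII. Nonclassical monocytes carry little Ly-6C, depend on the transcription factor Nr4a1 and patrol the vessel wall.

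All mice were wild-type C57BL/6J, 6 to 8 weeks old, with intracranial tumors of CT2A, a mouse glioma cell line, and the labels name no drug treatment. The early group was taken at day 13 from 16 mice, pooled 4 to a replicate, and the late group at day 19 from 4 mice. Cells positive for CD3 with CD4 or CD8 were sorted, so monocytes were not the cells the sort was set to keep. Each day had 1 gene expression, 1 antibody tag and 1 TCR library, all from 1 capture, so no comparison has replicates and no test or p-value is given. Intervals cover counting error only, and differences in mice, pooling, staining and capture cannot be told apart from the day.

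The day-13 matrix holds 144565182 UMIs of genes and the day-19 matrix 81224453. The monocytes had a median of 8813 gene UMIs (range 5344 to 29900) at day 13 and 9376.5 (5351 to 22286) at day 19, close to the 9251 and 9658 of the other droplets without a Cd3 UMI and to the 7449 and 9846.5 of CD8 T cells inside the contig lists. Their summed counts were 1237644 and 327560 UMIs, so the day-19 sums are the less precise ones. Median mitochondrial shares were 0.521% and 0.752%. Of the droplets passing the limits, 62 barcodes occurred on both days, and no monocyte barcode was a monocyte barcode on both. The other droplets without a Cd3 UMI, 883 at day 13 and 311 at day 19, are called the other droplets here. They mix macrophages, dendritic cells and further cells. Levels are given in CPM, the UMIs of a gene summed over a class and scaled to 1000000 gene UMIs.

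The label was checked against genes the rule did not use. Hp, which encodes the hemoglobin scavenger haptoglobin, stood at 312 CPM at day 13 and 427 CPM at day 19, against 46.0 and 50.3 CPM in the other droplets. It was found in 82 of 134 and 21 of 32 monocytes. Thbs1, the gene of the matrix glycoprotein thrombospondin 1, stood at 627 CPM at day 13 and 858 CPM at day 19, against 122 and 92.9 CPM in the other droplets. Both markers outside the rule were thus several fold higher in the monocytes on both days, and as both come from the counts that chose the cells this is a description. Of the genes that made the rule, Vcan had a UMI in 65 and 17 monocytes, Chil3 in 106 and 24, and F13a1 in 86 and 26, and all 3 were found together in 36 and 9. Each droplet therefore rests on few molecules of the rule: the sum of the 3 genes had a median of 10 UMIs (3 to 49) at day 13 and 9 (3 to 88) at day 19. At the edge of the rule, the 16 and 3 droplets with a sum of 3 had 18282 and 15401 CPM of Lyz2. The 17 and 6 droplets kept out with a sum of 2 had 12395 and 16102 CPM. Lyz2, the macrophage and monocyte lysozyme, was thus found on both sides of the edge. Other genes differed more across it, and not in one direction: Ccr2 stood at 318 CPM inside and 127 CPM outside at day 13 and at 119 and 202 CPM at day 19, Hp at 245 and 241 and then 158 and 679 CPM, and Fn1 at 119 and 188 and then 554 and 91.7 CPM.

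**Figure D1:**
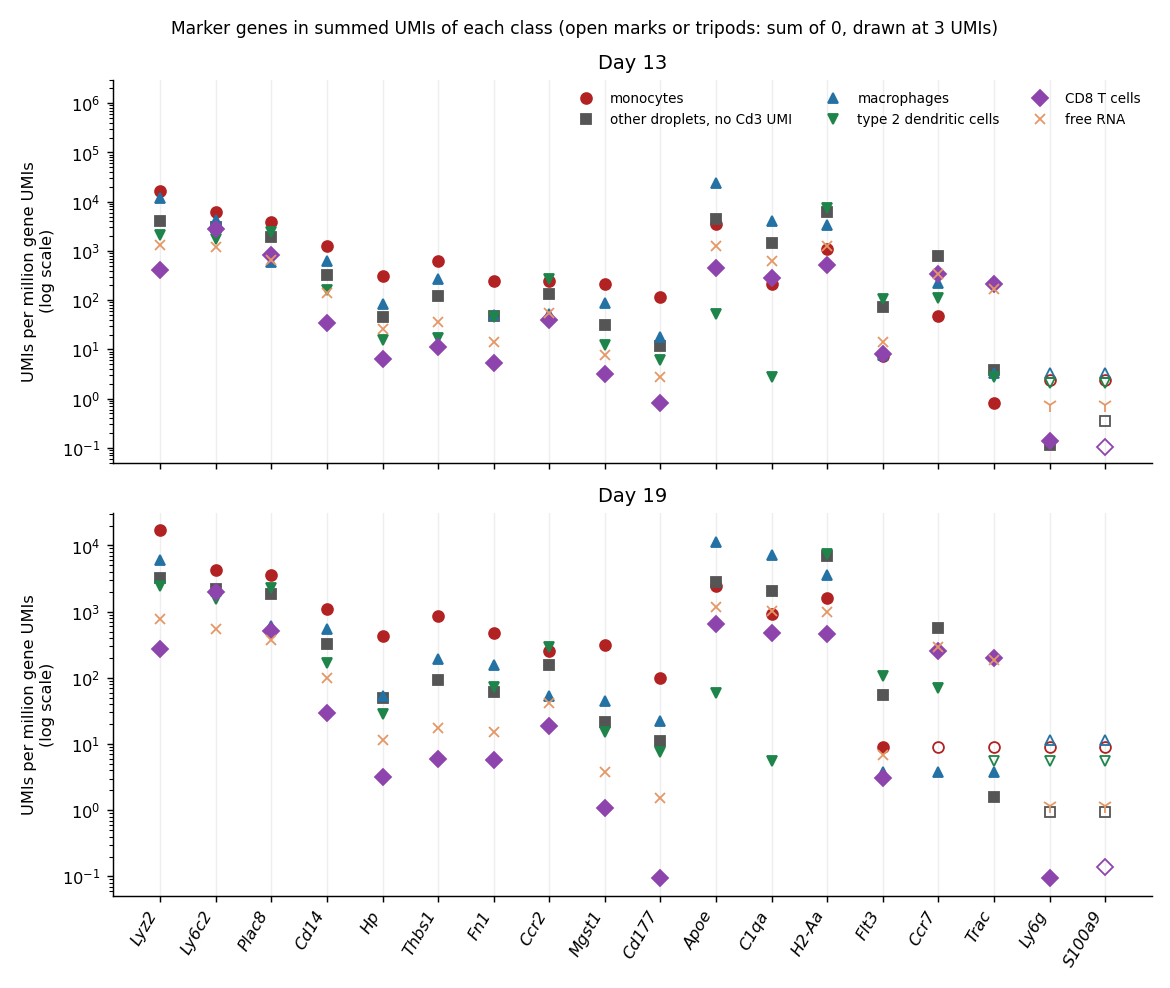
Level of each marker gene in CPM (log axis) in the monocytes, the other droplets and the comparison classes at day 13 and day 19; open marks and tripods are sums of 0 drawn at the level of 3 UMIs. Hp and Thbs1, which were not part of the rule, stand at 312 and 627 CPM in the day-13 monocytes and at 6.29 and 11 CPM in CD8 T cells.

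Markers of other cell types were low. Trac, the T cell receptor alpha constant gene, had 1 UMI and 0 UMIs in all monocytes of the days, and the 13 T and NK cell genes summed to 30.7 and 39.7 CPM, with 5 and 11 of them at 0. The same list summed to 3095 and 2927 CPM in droplets of 1 to 100 gene UMIs, which sample free RNA. The rule left out droplets with a Cd3 UMI or a TCR contig. Low T cell RNA was thus set in part by the rule and is no check of the label. Neutrophil genes were at or near 0: Ly6g, Cxcr2, Retnlg, S100a9, Camp, Ngp, Mpo and Elane had no UMI on either day, and 11 of the 14 genes of the list had none on each day. The other 3 were S100a8, with 2 UMIs and 1 UMI, Csf3r, the receptor of granulocyte colony-stimulating factor, at 68.7 CPM at day 13 and 39.7 CPM at day 19, and Mmp8, a collagenase of neutrophil granules, at 21.8 CPM at day 13 and 33.6 CPM at day 19. The list summed to 92.1 and 76.3 CPM, above the 45.1 and 40.3 CPM of the other droplets and the 18.9 and 16.3 CPM of free RNA. S100a9 and Retnlg had no UMI in the 883 day-13 other droplets either, so their zeros do not set the monocytes apart. B cell, mast cell and red cell genes summed to at most 6.46 CPM per list. Tumor and brain cell genes summed to 48.5 and 504 CPM. Microglial genes summed to 245 CPM at day 13 and 1004 CPM at day 19, against 2036 and 1949 CPM in the other droplets. The day-19 excess of these last lists lay in part in 2 droplets, described next: without them tumor and brain cell genes summed to 67.8 CPM and microglial genes to 397 CPM.

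At day 19, 2 of the 32 droplets went against the label. One had 19000 gene UMIs with 483 of C1qa, C1qb and C1qc together, which was 52.7% of all C1q UMIs of the day-19 monocytes. It also held 10 UMIs of Tmem119, 26 of Trem2 and 160 of Ccl12, genes of microglia and tissue macrophages, and 8 of Ly6c2. The other had 13784 gene UMIs, 143 of Col3a1 and 26 of Sparc, which matrix-producing cells make, and none of Lyz2 or Ly6c2. Its Vcan count was 6, and it had none of Chil3 and F13a1, so versican alone brought it into the set. The results that lean most on these droplets are also given without them. A day-13 droplet of 6315 gene UMIs was alike in part: it held 116 C1q UMIs, 11.8% of those of the day-13 monocytes, with 47 of Apoe, 12 of Ccl12 and 40 of Lyz2, none of Ly6c2, and 3 of Chil3 alone from the rule. In the genes that rise as monocytes become macrophages it stood at 34521 CPM, with 2 day-13 monocytes above it, the highest at 57610.1 CPM. All 3 droplets met the rule and were kept. Leaving out the day-13 droplet as well changed no count of a list against the other droplets at day 13, and between the days it left 11 genes higher and 57 lower, as without the 2 alone.

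The genes of classical monocytes stood above the other droplets as a group. Relative to the other droplets, 11 of 18 measured genes at day 13 and 9 of 17 at day 19 were 2-fold or more higher and none was 2-fold lower, with median log2 ratios of 1.68 and 1.12. A gene was measured here when the 2 sums held 100 UMIs or more of it. The other droplets held 8740275 and 3198226 gene UMIs, against 1237644 and 327560 in the monocytes. A gene can thus be measured through the other droplets alone, which favours lower over higher genes. Over all such genes, 3.68% of 7397 at day 13 and 4.2% of 4519 at day 19 were 2-fold higher, and 13.7% and 9.69% were 2-fold lower. On both days together, 123 of 4512 genes (2.73%) were higher and 244 (5.41%) lower. The cells were picked from these same counts, so the contrast describes them and is no evidence of its own. Among genes with at least 100 UMIs in the 2 sums of each day, those furthest above the other droplets on both days, outside the rule, were Hp, Thbs1, Fn1, Lyz2, Mgst1, Gda, Ccl6, Clec4e, Msr1, Trem1, the lipid synthesis gene Dgat2 and Morrbid, a noncoding RNA of myeloid survival. The 12 furthest below were Fscn1, Ccr7 and Il4i1 of migratory dendritic cells and the lymphocyte genes Gzma, Gzmb, Gzmc, Nkg7, Cd7, Ctsw, Il2rb, Ctla2a and Ifitm1. Gzma and Gzmc had no UMI in the monocytes of either day, so their places rest on the 3 counts that stand in for 0. Without the 2 droplets that went against the label, 11 of 17 classical genes were 2-fold higher at day 19, with a median of 1.27.

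Lyz2 stood at 16692 CPM at day 13 and 16901 CPM at day 19, against 4109.7 and 3279 CPM in the other droplets. Single monocytes ranged from 1677 to 44992 CPM with a median of 16205.5 at day 13, and from 0 to 36718 CPM with a median of 16625 at day 19. All 134 early and 31 of 32 late monocytes had a Lyz2 UMI, and the droplet at 0 was the one with Col3a1. Ly6c2, a gene of Ly-6C, stood at 6174 CPM at day 13 and 4271 CPM at day 19, against 3109.7 and 2183 CPM in the other droplets, log2 ratios of 0.99 and 0.97. Ly6c2 is not a gene of monocytes alone here: after thinning every droplet to 5000 UMIs, which left none out, it was found in 95.5% (90.5 to 98.3%) of monocytes and in 83.7% of CD8 T cells at day 13. Its close copy Ly6c1 can share reads, so the split between them is uncertain. Ccr2 was found in 56.0% (47.1 to 64.5%) and 59.4% (40.6 to 76.3%) of the thinned monocytes, 70.1% and 78.1% before thinning, against 11.9% and 4.89% of CD8 T cells. Its level of 247 CPM at day 13 and 253 CPM at day 19 lay beside 265 and 289 CPM in type 2 dendritic cells, so its level did not set the monocytes apart from those cells.

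Other classical genes differed more. Mgst1, a membrane glutathione transferase, stood at 214 CPM at day 13 and 314 CPM at day 19, against 31.1 and 21.6 CPM in the other droplets. Cd177, a surface glycoprotein that neutrophils and monocytes carry, reached log2 ratios of 3.33 and 3.16, the second on 33 UMIs in the monocytes and 36 in the other droplets, under the limit of 100. Msrb1, which repairs oxidised methionine, was at 1.84 and 1.87. Cd14, the lipopolysaccharide co-receptor, stood at 1262 CPM at day 13 and 1087 CPM at day 19, against 323 and 327 CPM in the other droplets. Gda, which encodes guanine deaminase, had log2 ratios of 2.41 and 2.29. Fn1, the gene of fibronectin, stood at 242 CPM at day 13 and 473 CPM at day 19, against 47.8 and 61.6 CPM in the other droplets. Plac8 had log2 ratios of 1.01 and 0.99. Csf1r, the receptor for the monocyte growth factor CSF1, did not set the cells apart: its log2 ratios were 0.23 (95% interval 0.12 to 0.34) and -0.05 (95% interval -0.27 to 0.16).

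Genes of nonclassical monocytes showed no common direction: 2 of 8 measured genes were higher by 2-fold and 2 lower at day 13, and 0 of 5 in either direction at day 19, beside the 3.68% and 4.2% higher and 13.7% and 9.69% lower of all genes. Cx3cr1, the fractalkine receptor, stood at 117 CPM at day 13 and 137 CPM at day 19, against 303 and 216 CPM in the other droplets. Treml4 was found in 28 of 134 and 4 of 32 monocytes, and Ace, which encodes angiotensin-converting enzyme, in 15 and 2. Nr4a1 stood at 823 CPM at day 13 and 678 CPM at day 19, against 645 and 658 CPM in the other droplets. After thinning, Nr4a1 was found in 78.4% and 71.9% of the monocytes and in 58.4% and 60.8% of the other droplets. Treml4 was found in 11.9% and 6.25% against 3.51% and 6.11%, and Ace in 9.70% and 3.12% against 1.13% and 1.29%. At day 13 the shares with Treml4 and Ace were thus larger in the monocytes than in the other droplets, a mixture of cells. At day 19 the Treml4 shares lay close together. The droplets of a day come from 1 capture, so these shares are a description. Cx3cr1 was found in 29.1% and 37.5% against 35.7% and 34.1%, so its lower level was not matched by a lower share at day 19.

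**Figure D2:**
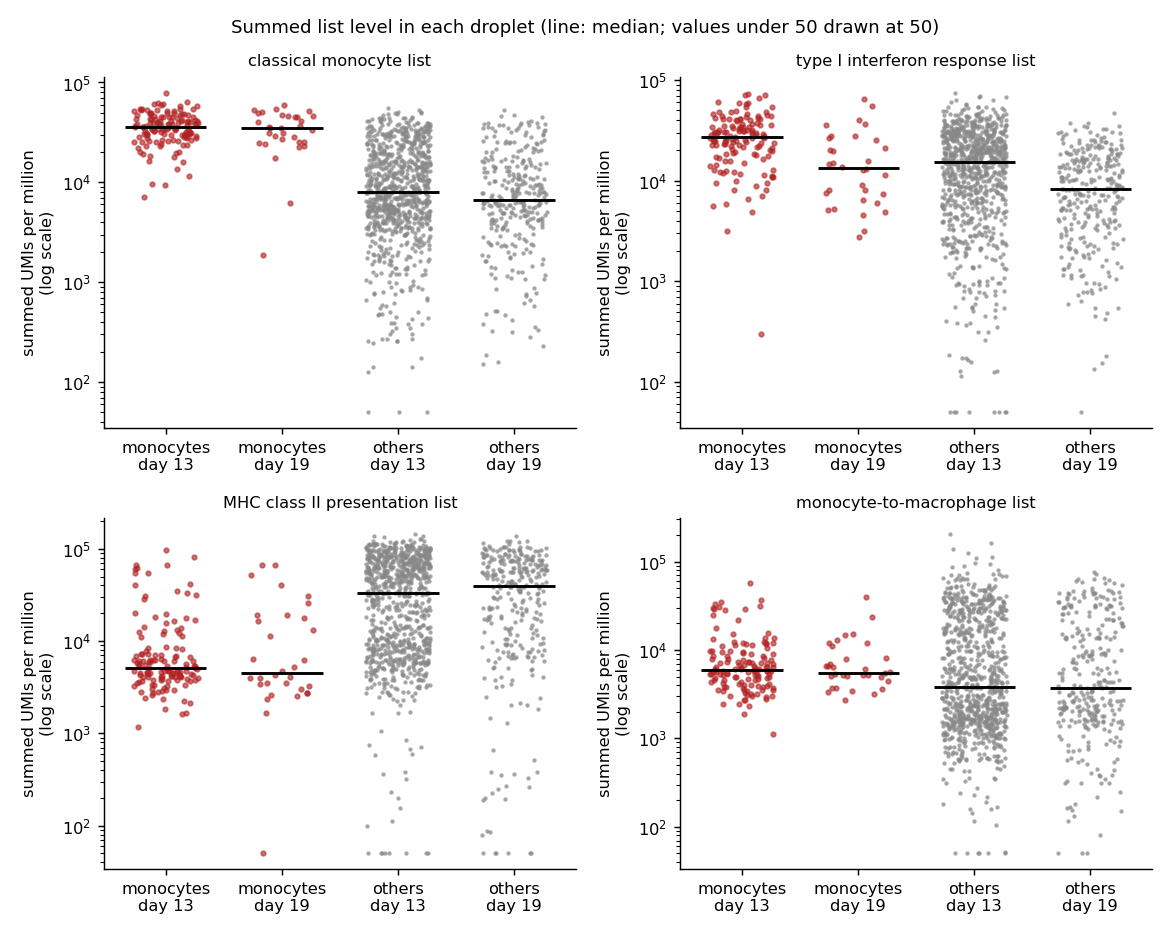
Summed CPM of 4 gene lists in every monocyte and every other droplet at day 13 and day 19 (log axis; lines are medians, values under 50 are drawn at 50). The classical monocyte genes have medians of 35727 and 35106.5 CPM in monocytes and 8076 and 6721 CPM in the other droplets.

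Counted per droplet, the classical genes took 7062 to 78262 CPM (median 35727) of each day-13 monocyte and 1886 to 59578 CPM (median 35106.5) of each day-19 monocyte. The other droplets reached up to 55169 and 52716 CPM, so the distributions overlapped. The Cd3-free droplets around the monocytes therefore included cells as rich in these genes that the rule left out.

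Against the macrophages of the same capture the monocytes had low levels of most genes of settled tissue macrophages. Macrophages were taken as Cd3-free droplets with a Gpnmb UMI and at least 3 UMIs of C1q, 70 at day 13 and 19 at day 19. Of the genes that rise as monocytes become macrophages, without C1q, which defined the macrophages, 8 of 14 measured genes at day 13 and 5 of 9 at day 19 were 2-fold or more lower in the monocytes, beside 6% and 8.53% of all measured genes, with medians of -2.65 and -2.21. Of the classical genes, 13 of 18 measured genes at day 13 and 12 of 15 at day 19 were higher, beside 10.1% and 15.6%. Apoe, which carries lipid out of cells, stood at 3552 CPM at day 13 and 2421 CPM at day 19 in monocytes and at 23513 CPM at day 13 and 11200.3 CPM at day 19 in macrophages. Spp1, the gene of osteopontin, stood at 84.8 CPM at day 13 and 85.5 CPM at day 19 in monocytes against 2234 and 525 CPM, and 1 monocyte held 51.4% and 82.1% of its UMIs. Plac8 was higher in monocytes by log2 ratios of 2.67 and 2.57 and Ccr2 by 2.25 and 2.26. C1q and Gpnmb defined the macrophages, so their contrast is not a result, and as these classes were all cut from the same counts the shares are read as a description. Without the 2 droplets that went against the label, the macrophage genes had a day-19 median of -1.68 against the other droplets, and -0.76 with them.

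C1q was not absent from the monocytes. C1qa, C1qb and C1qc together had no UMI in 86 of 134 and 18 of 32 monocytes, 1 or 2 in 23 and 5, and 3 or more in 25 and 9. C1qa was found in 15.7% (9.97 to 23%) of thinned day-13 monocytes, and 12.6% of CD8 T cells, and the day-13 interval includes the share in T cells. At day 19 the shares were 31.2% and 24.2%. Apoe reached 83.6% (76.2 to 89.4%) and 81.2% (63.6 to 92.8%) of the thinned monocytes against 12.8% and 19.9% of CD8 T cells. Of the macrophage list, 10 of 18 measured genes at day 13 and 6 of 17 at day 19 were 2-fold lower than in the other droplets, beside 13.7% and 9.69% of all genes, and 0 and 1 higher. Without the 2 droplets that went against the label, 10 of 17 were lower at day 19 and 1 higher. The list's sum per droplet went the other way, with medians of 5995 and 5526 CPM in monocytes and 3769 and 3718 CPM in the other droplets, of which only some are macrophages.

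Type 2 dendritic cells, which sample antigen and present it to CD4 T cells, were taken as droplets with at least 2 Cd209a UMIs and under 3 of C1q, 145 at day 13 and 53 at day 19. MHC class II genes were 2-fold or more lower in the monocytes for 10 of 11 measured genes at day 13 and 6 of 8 at day 19, beside 6.6% and 6.53% of all measured genes. Pattern recognition and Fc receptors were higher for 14 of 18 measured genes at day 13 and 5 of 7 at day 19, and coagulation and matrix genes for 11 of 12 measured genes at day 13 and 6 of 8 at day 19, beside 9.27% and 8.94%. Thbs1 exceeded the dendritic cells by a log2 ratio of 5.19 (95% interval 4.62 to 5.83) at day 13. At day 19 it had no UMI in the dendritic cells, and against 3 counts over that class the monocytes were at least 7.25 higher on the log2 scale.

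MHC class II was low in most monocytes and high in a few. H2-Aa, which encodes a class II alpha chain, stood at 1079 CPM at day 13 and 1612 CPM at day 19, against 6286 and 6983 CPM in the other droplets. It had a UMI in 41 of 134 and 13 of 32 monocytes, and 1 droplet of each day held 16.3% and 27.3% of its UMIs. After thinning, the shares were 20.9% (14.4 to 28.8%) and 37.5% (21.1 to 56.3%), beside 12.6% and 14.4% in CD8 T cells, which do not express it. Cd74, the invariant chain that escorts class II, ranged over single monocytes from 0 to 43434 CPM with a median of 392 at day 13. Of the whole class II list, 10 of 12 measured genes at day 13 and 8 of 12 at day 19 were 2-fold lower than in the other droplets, beside 13.7% and 9.69% of all genes, with medians of -2.10 and -1.65. MHC class I genes did not differ in this way: 0 of 14 measured genes at day 13 and 2 of 14 at day 19 were 2-fold lower, none was 2-fold higher, and the medians were -0.01 and -0.06.

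Dendritic cell genes were low as well. In the comparison with the other droplets, 13 of 15 measured genes at day 13 and 7 of 12 at day 19 were 2-fold lower, beside 13.7% and 9.69% of all genes. Flt3, the receptor that supports dendritic cell development, had 9 and 3 UMIs, and Zbtb46, a transcription factor of conventional dendritic cells, 3 and 1. Genes with so few UMIs in the monocytes can reach the limit of 100 only through the other droplets. The counts of lower genes are therefore a description. Ccr7, which guides migratory dendritic cells to lymph nodes, was found in 3 of 134 monocytes and in none at day 19. In the other droplets it stood at 790.4 and 565 CPM. The transcription factor Irf4 had 6 UMIs and 1 UMI, whereas Irf8, which monocytes and dendritic cells share, stood at 276 CPM at day 13 and 473 CPM at day 19, against 590.5 and 686 CPM in the other droplets. At day 19, 1 droplet held 42.6% of the Irf8 UMIs.

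Receptors that sense microbes, damage and antibody were a second high group: 11 of 23 measured genes at day 13 and 9 of 19 at day 19 were 2-fold higher than in the other droplets, beside 3.68% and 4.2% of all genes, none was 2-fold lower, beside 13.7% and 9.69%, and the medians were 0.96 and 1.00. Against the macrophages the list did not stand out: 2 of 20 measured genes at day 13 and 0 of 7 at day 19 were 2-fold higher, beside 10.1% and 15.6% of all genes, with medians of 0.40 and 0.23. Clec4e, the receptor Mincle, stood at 381 CPM at day 13 and 247 CPM at day 19, against 94.8 and 37.2 CPM in the other droplets. Clec4d, its partner, reached log2 ratios of 2.09 and 2.95, and Trem1, which amplifies inflammatory signals, 2.25 and 2.15. Msr1, a scavenger receptor, reached 2.04 and 2.00 and Tlr2, a receptor for bacterial lipoproteins, 1.30 and 1.12. Fcgr1, the high-affinity IgG receptor CD64, stood at 1054 CPM at day 13 and 733 CPM at day 19, against 505 and 366 CPM in the other droplets. Clec4a family members are near copies of each other, so reads could have been split among them.

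Coagulation and matrix genes were the third: 10 of 14 measured genes at day 13 and 9 of 12 at day 19 were 2-fold higher, beside 3.68% and 4.2% of all genes, with medians of 1.62 and 1.55. Lower by 2-fold were 1 and 0, beside 13.7% and 9.69%, the former Timp2, another metalloprotease inhibitor, at -2.19. Hp, Thbs1 and Fn1 are on both this and the classical list, so the counts of the lists are not independent. Cd44, the receptor for hyaluronan, reached log2 ratios of 1.99 and 1.87. Plaur, the urokinase receptor, stood at 931 CPM at day 13 and 1084 CPM at day 19, against 296 and 422 CPM in the other droplets. Tgm2, a transglutaminase that cross-links matrix, reached 1.59 and 2.06. Emilin2, an elastin-associated glycoprotein, reached 2.07 and 1.64 and F10, coagulation factor X, 1.37 and 1.45. Tgfbi, a matrix protein induced by TGF-beta, stood at 2426 CPM at day 13 and 2445 CPM at day 19, against 982 and 1056 CPM in the other droplets. Timp1, an inhibitor of matrix metalloproteases, reached 3.38 and 3.43, the second on 31 and 28 UMIs, and 1 of the 32 day-19 monocytes held 93.5% of its UMIs. Nos2, the inducible nitric oxide synthase, had only 4 UMIs and 1 UMI.

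Among secreted signals the picture was divided. Il1rn, the antagonist of interleukin 1, stood at 1799 CPM at day 13 and 791 CPM at day 19, against 470.0 and 309.5 CPM in the other droplets, and Il1b, interleukin 1 beta itself, at 1761 CPM at day 13 and 1878 CPM at day 19, against 1137 and 1301 CPM in the other droplets. Il18 reached log2 ratios of 1.75 and 2.10, Il15 1.36 and 1.13 and Osm, which encodes oncostatin M, 1.49 and 1.01. Tgfb1 reached 1.18 and 0.89. Il10 had 4 UMIs at day 13 and none at day 19, and Il12b, a subunit of interleukin 12, none on either day. Of all cytokine genes, 6 of 16 measured genes at day 13 and 4 of 11 at day 19 were 2-fold higher and 4 and 3 2-fold lower, beside 3.68% and 4.2% and 13.7% and 9.69% of all genes. The list holds both pro-inflammatory and restraining signals and showed no common direction.

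Chemokines split in the same way, with 5 of 14 genes higher and 3 lower at day 13, and 4 of 13 in each direction at day 19, beside 3.68% and 4.2% of all genes higher and 13.7% and 9.69% lower. Ccl6, a mouse myeloid chemokine, stood at 508 CPM at day 13 and 644 CPM at day 19, against 98.9 and 134 CPM in the other droplets. Ccl9 reached log2 ratios of 1.27 and 1.89. Ccl2, which attracts CCR2-bearing monocytes, stood at 1631 CPM at day 13 and 946 CPM at day 19, against 619 and 447 CPM in the other droplets. Cxcl10, which attracts CXCR3-bearing T cells, stood at 3342 CPM at day 13 and 1669.9 CPM at day 19, against 1155 and 658 CPM in the other droplets, while its relative Cxcl9 did not differ in this way, at 0.22 and -0.11. Ccl22 and Ccl17, ligands of CCR4, had 2 and 0 UMIs at day 13 and none at day 19.

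Genes that regulate T cells gave 5 of 19 higher and 5 lower at day 13, and 3 of 16 in each direction at day 19, beside the same shares of all genes. The list thus had no common direction. Lilrb4a, an inhibitory receptor of myeloid cells, stood at 733 CPM at day 13 and 766 CPM at day 19, against 316 and 276 CPM in the other droplets, and Lgals9, which encodes galectin 9, reached log2 ratios of 1.03 and 0.89. Cd274, the gene of PD-L1, was found at 123 CPM at day 13 and 79.4 CPM at day 19, log2 ratios of -0.37 and -0.81. Il4i1, an amino acid oxidase that restrains T cells, was among the lowest of all genes, at -3.75 and -4.81.

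Some genes of glucose use were also higher than in the other droplets. Slc2a1, the glucose transporter GLUT1, reached log2 ratios of 1.13 and 1.25, Slc16a3, which exports lactate, 1.11 and 1.5, and Hk3, a hexokinase of myeloid cells, 1.66 and 1.36. Of the glycolysis and hypoxia genes, 6 of 25 measured genes at day 13 and 5 of 23 at day 19 were 2-fold higher, beside 3.68% and 4.2% of all genes, and 1 and 0 2-fold lower, the former Ndrg1, a hypoxia-induced gene, at -1.61, whereas Gapdh was at 0.18 and 0.38. Against the macrophages this list did not stand out. There 2 of 20 measured genes at day 13 and 1 of 10 at day 19 were 2-fold higher, beside 10.1% and 15.6% of all genes. The medians were 0.14 and 0.35. Cebpb, a transcription factor of monocytes and inflammation, stood at 3977 CPM at day 13 and 3206 CPM at day 19, against 1199 and 1095 CPM in the other droplets. Bhlhe40 stood at 253 CPM at day 13 and 189 CPM at day 19, against 689 and 479 CPM in the other droplets. Egr1, an immediate early gene, reached -2.74 and -1.54, and 1 droplet held 27.8% and 33.8% of its UMIs. Mki67, the proliferation marker, had 7 UMIs at day 13 and 0 at day 19 in the monocytes.

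Interferon-stimulated genes were present on both days. Isg15, a ubiquitin-like protein induced by type I interferon, stood at 4992 CPM at day 13 and 2812 CPM at day 19, against 2764 and 1507 CPM in the other droplets. The list had medians of 0.75 and 0.58 against the other droplets, with 5 of 28 and 5 of 28 genes 2-fold higher, beside 3.68% and 4.2% of all genes, and none lower. Without the 2 droplets that went against the label, 8 of 28 were 2-fold higher at day 19, with a median of 0.66. Rsad2, which encodes the antiviral enzyme viperin, reached 1.41 and 1.59, and Slfn4, a Schlafen gene of myeloid cells, 1.73 and 2.34. Against macrophages, 16 of 27 measured genes at day 13 and 12 of 21 at day 19 were 2-fold higher, beside 10.1% and 15.6% of all genes. Against type 2 dendritic cells, 4 of 28 measured genes at day 13 and 3 of 27 at day 19 were, beside 9.27% and 8.94%, with medians of 0.44 and 0.03. The list was thus above the macrophages on both days and near the dendritic cells at day 19. Scaled by the trimmed mean of M values (TMM) instead of the total, ratios against the other droplets shift by 0.20 at day 13 and by 0.004 at day 19, the same for every gene.

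Surface proteins, which the rule did not read, were measured by DNA-tagged antibodies in the same droplets and are given in antibody CPM, scaled to 1000000 antibody UMIs. CD11b, an integrin chain of myeloid cells, had a median of 8754 per monocyte at day 13 (range 1295 to 19443) and 12161 (1341 to 30965) at day 19. Medians in the other droplets were 4439.5 and 5317, and in CD8 T cells 1139 and 1458. The ranges overlapped, and the summed log2 ratios to the other droplets were 0.79 (95% interval 0.75 to 0.84) and 0.96 (95% interval 0.86 to 1.05). Ly6C had medians of 11236 and 17307.5 in monocytes, 3668 and 3271 in the other droplets, and 4254 and 4369 in CD8 T cells, with log2 ratios to the other droplets of 1.05 (95% interval 1.02 to 1.09) and 1.34 (95% interval 1.25 to 1.43). CD44, an adhesion receptor for hyaluronan, was at log2 ratios of 0.71 (95% interval 0.65 to 0.77) and 0.60 (95% interval 0.45 to 0.74). The RNA of Itgam, the CD11b gene, was at 0.96 and 0.81, so protein and RNA of this integrin, of Ly-6C and of CD44 were all higher in the monocytes.

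MHC class II protein was low. The IA/IE tag had medians of 1035 and 932 in monocytes, 4652 and 5076 in the other droplets, and 1044 and 1268 in CD8 T cells, which carry none. Its log2 ratios to the other droplets were -2.19 (95% interval -2.27 to -2.12) and -2.78 (95% interval -3.02 to -2.54). Single monocytes reached 41299 and 14572, so a few did carry class II. Against macrophages, the monocytes were at -2.24 and -2.27 for IA/IE, -0.03 and 0.01 for CD11b and 0.42 and 0.68 for Ly6C. Against type 2 dendritic cells they were at 1.15 and 1.30 for CD11b and 1.62 and 1.70 for Ly6C. On these sums, class II protein was over 2-fold lower than in macrophages, and CD11b and Ly6C over 2-fold higher than in dendritic cells.

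**Figure D3:**
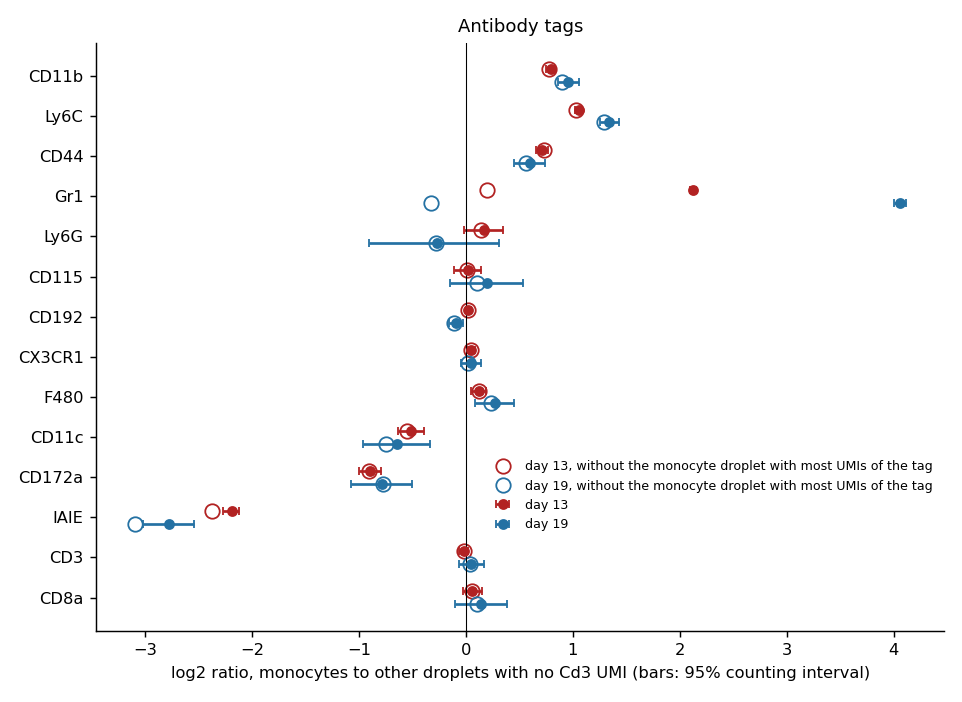
Log2 ratio of monocytes to the other droplets for surface protein tags at day 13 and day 19, on antibody CPM; bars are exact 95% counting intervals, and open circles leave out the monocyte with most UMIs of the tag. Ly6C lies at 1.05 and 1.34, and IA/IE at -2.19 and -2.78.

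Most tags did not tell the monocytes from their surroundings. Against CD8 T cells, 4 tags at day 13 (2.9%; CD11b, CD44, Gr1 and Ly6C) and 3 at day 19 (2.17%; the same without CD44) were 2-fold higher, and 2 (1.45%) and 7 (5.07%) were lower. Against the other droplets, of 138 tags, 2 were 2-fold higher on each day (1.45% and 1.45%), namely Ly6C and Gr1, and 3 (2.17%) and 9 (6.52%) were 2-fold lower. The Gr1 tag rested on 1 droplet per day, which held 74.5% and 95.8% of its UMIs. Without that droplet its log2 ratios were 0.20 and -0.33. Because the tags share 1 total, that droplet also lowers every other tag of the monocytes: with Gr1 left out of the totals, Ly6C was at 1.08 and 1.45 and CD11b at 0.82 and 1.07, so that CD11b in place of Gr1 was 2-fold higher at day 19. The neutrophil tag Ly6G was at 0.17 and -0.27. The tag for CD192, which is CCR2, was at 0.02 and -0.09 and had medians of 26674.5 and 24023 against 27259 and 25617 in CD8 T cells, so it showed no separation here although Ccr2 RNA did. The CD3 tag had a median of 8179 and 8653 in monocytes and of 8609 and 8478 in CD8 T cells. It did not set apart T cells from monocytes in these captures. Tags for other monocyte and macrophage proteins were near 0 too: CD115, the CSF1 receptor, at 0.02 and 0.20, and F4/80 at 0.12 and 0.27. Isotype controls made up 0.589% and 0.568% of the antibody UMIs in monocytes.

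Between day 13 and day 19 the classical genes stayed near their level and the interferon genes were lower. None of the 18 classical genes differed 2-fold between the days, and their median log2 ratio of day 19 to day 13 was -0.05 (-0.22 under TMM scaling). Without the 2 odd droplets 1 was 2-fold higher, Fn1 at 1.10, and the median was 0.05. Lyz2 was at 0.02 (95% interval -0.03 to 0.06), Plac8 at -0.09 (95% interval -0.19 to -0.00068) and Ccr2 at 0.04 (95% interval -0.33 to 0.39). Ly6c2 was lower at day 19, at -0.53 (95% interval -0.61 to -0.45), and the other droplets were at -0.51. Fn1 was at 0.97 (95% interval 0.68 to 1.25), close to the 2-fold limit. Over all 2230 measured genes, 26 (1.17%) were 2-fold higher and 71 (3.18%) 2-fold lower at day 19. In the other droplets the same genes gave 4 (0.179%) and 17 (0.762%), from larger sums. Without the 2 droplets that went against the label, 11 genes were higher and 57 lower in the monocytes. Droplets were also left out by their leading multiplexing tag, at any share of the tag UMIs, 1 tag in turn. This gave 16 to 48 higher and 41 to 127 lower genes, with 48 and 127 without tag 3 of day 19, 16 higher without tag 1 of day 19 and 41 lower without tag 4 of day 13. Under TMM scaling 13 were higher and 120 lower.

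All 27 measured type I interferon genes had lower levels at day 19 than at day 13, and 8 of them were 2-fold lower, beside the 3.18% of all genes. The median log2 ratio was -0.84. Isg15 went from 4992 to 2812 CPM, -0.83 (95% interval -0.93 to -0.73). Ifit3 went from 1644 to 659 CPM, -1.32 (95% interval -1.53 to -1.12), and Rsad2 from 1757 to 794 CPM, -1.15 (95% interval -1.34 to -0.96). Usp18, which shuts off interferon receptor signals, was at -1.10, Slfn4 at -1.18 and Ifi205 at -1.16. Ifit and Slfn genes have close copies in the mouse genome, so their split is uncertain. Without the 2 odd droplets 7 of the genes were 2-fold lower with a median of -0.73, and under TMM scaling, which shifts every day ratio by -0.18 on the log2 scale, 15 were, with a median of -1.02.

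The same list was lower outside the monocytes. Its median was -0.81 in the other droplets, where 7 genes were 2-fold lower, and -1.16 in the droplets of free RNA. The part of free RNA in the monocyte values was not tested. Per droplet, the list took 297 to 72194.5 CPM (median 26913) at day 13 and 2757 to 64778 CPM (median 13488) at day 19. The ranges of single monocytes overlapped widely. By multiplexing tag, which marks pools of cells but is tied to no replicate in the labels, the 4 tags had 21457, 29151, 32151.5 and 29830 CPM at day 13 and 3766, 14301, 21892 and 16333 CPM at day 19. The highest day-19 tag thus lay just above the lowest day-13 tag. The first day-19 tag holds 2 droplets, of which 1 is the droplet with Col3a1, and the fourth holds the droplet with most C1q. Without these droplets the 2 tags had 5939 CPM, from 1 droplet, and 20540.5 CPM, from 3.

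**Figure D4:**
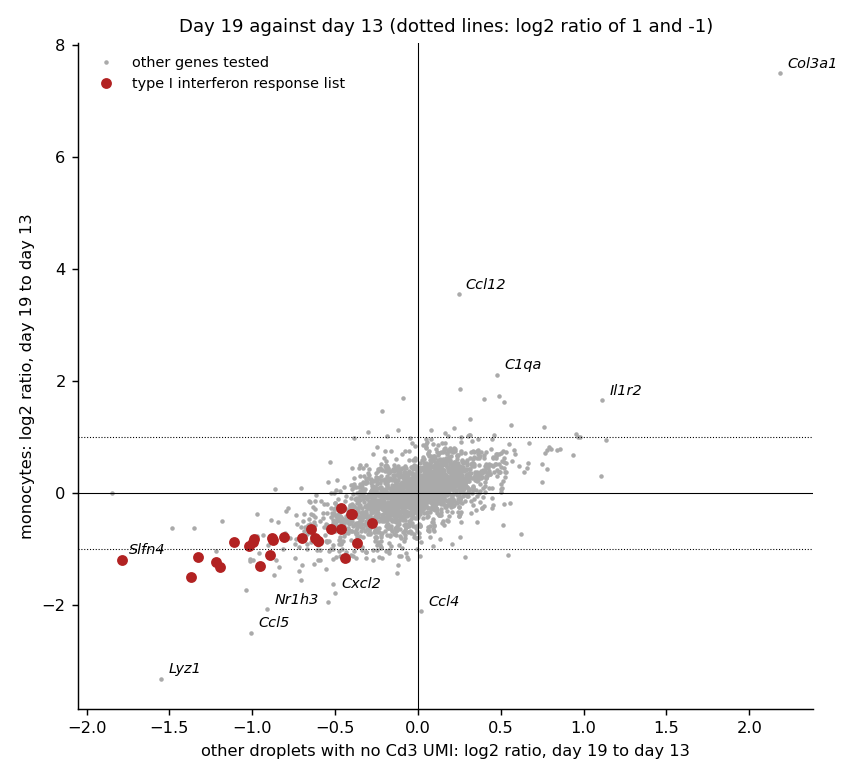
Log2 ratio of day 19 to day 13 for each measured gene in monocytes (vertical) and in the other droplets (horizontal); type I interferon genes are red. All 27 measured interferon genes lie under 0 on the monocyte axis, with medians of -0.84 in monocytes and -0.81 in the other droplets.

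Of the chemokines, 4 of 12 were 2-fold lower at day 19 and 1 higher, beside 3.18% and 1.17% of all genes. Without the 2 odd droplets 3 were lower and 0 higher. Ccl5, a chemokine that T cells make in quantity, went from 2023 to 360.2 CPM in the monocytes, -2.49 (95% interval -2.77 to -2.22), beside -1.01 in the other droplets and -1.27 in free RNA, which held 3286 and 1359 CPM. The T and NK cell list stood at 30.7 CPM in the day-13 monocytes and 3095 CPM in free RNA, and the part of free RNA in Ccl5 was not tested. Ccl4, also called MIP-1 beta, went from 1283 to 299 CPM, -2.10 (95% interval -2.41 to -1.81). In the other droplets Ccl4 was level at 0.02, as it was in free RNA at 0.02. By tag, Ccl5 took 398 to 2281 CPM at day 13 and 25.1 to 1077 CPM at day 19, which overlapped. Ccl4 took 930.5 to 1565 CPM at day 13 and 35.3 to 643 CPM at day 19, which did not overlap. Cxcl2, which attracts neutrophils, went from 684 to 198 CPM, -1.78 (95% interval -2.17 to -1.42), and its tag ranges did not overlap either. Of the 12 chemokines, 3 (Ccl4, Cxcl2 and Cxcl10) had every day-19 tag under every day-13 tag, beside 4.8% of all genes, and also without the 2 odd droplets, beside 4.4%. None had every day-19 tag above, beside 2.78% of all genes, or 2.74% without those droplets. Cxcl2 had a UMI in 52 of 134 and 12 of 32 monocytes.

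Il1rn, on the cytokine list, was at -1.19 (95% interval -1.38 to -1.0), with 1212 to 2274 CPM by tag at day 13 and 198 to 1167 at day 19, whereas Il1b was at 0.09 (95% interval -0.04 to 0.22). Nr1h3, which encodes the oxysterol receptor LXR alpha, was at -2.07 (95% interval -3.31 to -1.05) on 127 and 8 UMIs. Ptafr, the receptor of platelet-activating factor, was at -1.55 and Acp5, a phosphatase of macrophages and osteoclasts, at -1.62. Of the stress and immediate early list, 2 of 18 genes were 2-fold lower, beside 3.18% of all genes, Atf3 at -1.12 and Ier3 at -1.06, and 1 was higher, beside 1.17%, Egr1 at 1.01. Without the 2 odd droplets 0 were lower and 0 higher. Lyz1, a lysozyme gene nearly identical to Lyz2 so that their reads can be split, had 112 UMIs in 6 monocytes at day 13, 61.6% of them in 1, and none at day 19. All 71 lower genes stayed 2-fold lower when the droplet with most UMIs of each gene was left out on each day, but that step removes 1 of 32 droplets against 1 of 134 and so lowers day 19 by its construction.

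The higher genes were less evenly spread over the droplets: in the median gene of the 26, 1 droplet held 33.6% of the day-19 UMIs, against 18.2% for the 71 lower genes. Of the 26, 17 had over 25% in 1 droplet. All 143 UMIs of Col3a1, a collagen gene, and 89.4% of those of Ccl12 lay in the 2 droplets described above. The same was true in part of C1qa, C1qb and C1qc, whose day ratios of 2.12, 1.67 and 1.73 had 52.5%, 49.6% and 58.1% of day-19 UMIs in 1 droplet. Without the 2 odd droplets the ratios were 1.19, 0.84 and 0.63, and with the day-13 droplet rich in C1q left out too 1.35, 1.00 and 0.85. Il1r2, the decoy receptor of interleukin 1, did not share this: it was at 1.66 (95% interval 1.06 to 2.25) with 19.6% in its leading droplet, was found in 19 of 134 and 13 of 32 monocytes, and was at 1.11 in the other droplets. MHC class II genes had a median of 0.52, with no gene 2-fold higher, beside 1.17% of all genes. Without the 2 odd droplets the median was 0.59, with 1 of 8 at the limit, H2-DMb1 at 1.00. Glycolysis and hypoxia genes were at a median of 0.10, or -0.08 under TMM scaling, and so had no direction that holds over both scalings.

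Among themselves the monocytes varied widely in Ly6c2, which the rule did not use. Thinned to 5000 gene UMIs each, they held 0 to 135 Ly6c2 UMIs (median 21) at day 13 and 0 to 85 (median 16.5) at day 19. The 44 day-13 monocytes with over 33 UMIs were set against the 47 with at most 13, leaving out the 43 between, and at day 19 the 11 with over 22 against the 12 with at most 11. This is a cut through a range and not a pair of cell types. Of all other genes with at least 30 UMIs, 5.06% of 2212 were 2-fold higher and 5.52% 2-fold lower in the Ly6c2-rich cells at day 13, and 9.61% and 4.07% of 614 at day 19.

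Ly6C protein followed the RNA at day 13, with 8830.1 antibody CPM in the Ly6c2-poor and 15067 in the Ly6c2-rich cells, a log2 ratio of 0.77 (95% interval 0.69 to 0.85). At day 19 the Ly6c2-rich total holds the droplet that leads the Gr1 tag: Gr1 took 6438 of its 32284 antibody UMIs, against 108 of 29397 in the Ly6c2-poor cells, which lowers every other tag of the Ly6c2-rich cells. Day-19 values are therefore given with and without Gr1 in the totals. The Ly6C ratio at day 19 was 0.06 (95% interval -0.13 to 0.25), or 0.38 (95% interval 0.19 to 0.57) without Gr1. CD11b was at 0.06 (95% interval -0.03 to 0.16) and 0.01 (95% interval -0.20 to 0.22), or 0.32 (95% interval 0.12 to 0.53) without Gr1. Ly6A, also called Sca-1 and induced by interferons, was at 1.07 (95% interval 0.77 to 1.37) and 0.27 (95% interval -0.35 to 0.90), or 0.59 (95% interval -0.03 to 1.22) without Gr1. CD274, which is PD-L1, was at 0.69 (95% interval 0.45 to 0.94) and -0.53 (95% interval -1.11 to 0.04), or -0.22 (95% interval -0.80 to 0.35) without Gr1.

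Glycolysis genes were higher in the Ly6c2-rich day-13 cells, 8 of 19 by 2-fold with a median of 0.83, beside 5.06% of all genes. Tpi1, triosephosphate isomerase, was at 174 CPM in the Ly6c2-poor and 682 CPM in the Ly6c2-rich cells, 1.97 (95% interval 1.46 to 2.50) on the log2 scale. Aldoa, the glycolytic aldolase, was at 1.47 and Mif, a cytokine gene on the same list, at 2.02. At day 19 they were at 0.60, 0.64 and 1.61, and 1 of 10 genes of the list was 2-fold higher, beside 9.61% of all genes. H2-Q7, a nonclassical class I gene with near-identical neighbours, was at 2.54 and 1.58. Cxcl16, the ligand of CXCR6 on tissue T cells, was at 1.41 and 1.87. Slfn4 was at 1.20 and 1.05. Mif, H2-Q7, Cxcl16 and Slfn4 were thus 2-fold or more higher on the Ly6c2-rich side on both days. Without the 2 odd droplets, both Ly6c2-poor, Mif was at 1.67 at day 19, Cxcl16 at 2.25 and Slfn4 at 0.78, under 2-fold, and H2-Q7 fell under 30 UMIs.

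**Figure D5:**
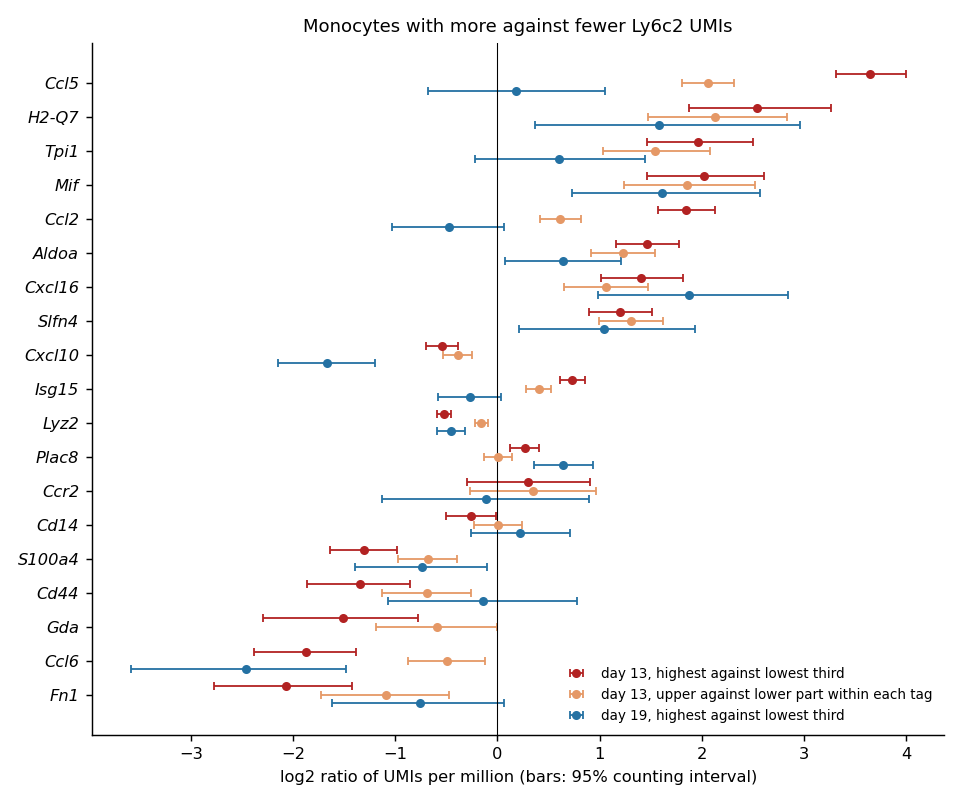
Log2 ratio of the Ly6c2-rich to the Ly6c2-poor monocytes for genes of the lists at day 13 and day 19, on UMIs thinned to 5000 per droplet with 95% counting intervals; orange marks split the day-13 cells within each multiplexing tag. Ccl5 lies at 3.65 at day 13 and 0.18 at day 19, and Fn1 at -2.07 and -0.76.

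Several genes were lower in the Ly6c2-rich day-13 cells. Fn1 was at 459.6 CPM in the Ly6c2-poor and 109 CPM in the Ly6c2-rich cells, -2.07 (95% interval -2.78 to -1.43) on the log2 scale, Gda at -1.51, Cd177 at -1.36 and S100a4, a calcium-binding protein, at -1.31. Of the 17 other classical genes, 4 were 2-fold lower, beside 5.52% of all genes, and none higher, beside 5.06%. Gda and S100a4 were under 2-fold when split within tags, at -0.59 and -0.68. Ccl6 was lower on both days, at -1.87 and -2.46. Lyz2, Ccr2 and Plac8 were within 2-fold, at -0.53, 0.30 and 0.27. Classical monocyte genes therefore did not move as a block with Ly6c2. Ccl5 was at 336 CPM in the Ly6c2-poor and 4209 CPM in the Ly6c2-rich cells, 3.65 (95% interval 3.31 to 4.00) on the log2 scale at day 13 and at 0.18 at day 19.

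At day 19 the Ly6c2-rich cells were higher in MHC class II: 6 of 8 genes by 2-fold with a median of 1.39, beside 9.61% of all genes. At day 13 it was 0 of 8, beside 5.06%, with a median of 0.57. The list then summed to 9970 CPM in the Ly6c2-poor and 15173 CPM in the Ly6c2-rich cells. Split within each multiplexing tag at day 13, H2-Aa was at -0.33 and Cd74 at -0.30, whereas Ctss was at 0.47. At day 19 H2-Aa was at 1.40 and Cd74 at 1.68. Cxcl9, which interferon gamma induces, was at 50 CPM in the Ly6c2-poor and 909 CPM in the Ly6c2-rich cells, 4.18 (95% interval 2.55 to 6.51) on the log2 scale, on 3 and 50 thinned UMIs, and Il1b was at 1.34. Cxcl10 was lower, at -1.67. Both odd droplets were among the 12 Ly6c2-poor ones. Without them, with 10 droplets left, 6 of 8 class II genes were 2-fold higher with a median of 1.30, beside 9.74% of all genes, and H2-Aa was at 1.28, Cd74 at 1.62, Cxcl9 at 3.92, Il1b at 1.08 and Cxcl10 at -1.79. C1q moved with this: without the 2 droplets C1qa, C1qb and C1qc had no UMI in the Ly6c2-poor cells and 52, 83 and 41 thinned UMIs in the Ly6c2-rich ones, and 3 of 7 genes of the macrophage list, these 3, were 2-fold higher. Of the 11 Ly6c2-rich droplets 8 held C1q, and these held 1194 of the 1364 class II UMIs of the group. In the Ly6c2-poor cells 1 droplet held 60.1% of the class II UMIs. The part of C1q-bearing cells in the class II values was not tested.

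The multiplexing tags were not shared evenly by the day-13 groups: the Ly6c2-poor cells had 6, 12, 6 and 5 droplets of the 4 tags and the Ly6c2-rich 3, 3, 12 and 13. Median gene UMIs were 8402 and 9239.5 before thinning. Split at the median of Ly6c2 within each tag instead, 3.32% of 2108 genes were 2-fold higher and 2.51% lower. Ccl5 was then at 2.06, H2-Q7 at 2.13, Mif at 1.86, Tpi1 at 1.54, Aldoa at 1.22, Slfn4 at 1.30 and Cxcl16 at 1.06, each higher in 4 of 4 tags. Elsewhere on the glycolysis list, Pfkl was at 1.34. Pgk1, Ldha, Pkm and Gapdh were under 2-fold, at 0.98, 0.84, 0.41 and 0.20. Fn1 was at -1.09 and Cd177 at -1.10, lower in 4 of 4. Gda and S100a4, also lower in 4 of 4, were within 2-fold at -0.59 and -0.68. Ccl6 was at -0.50 and split evenly between the tags, and Ccl2, at 1.85 over all cells, was at 0.61 and also split evenly.

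Monocyte numbers by tag were 13, 23, 25 and 28 at day 13 and 2, 10, 11 and 4 at day 19, with 45 and 5 droplets where no tag reached 80% of the tag UMIs. As a share of the Cd3-free droplets of the tag they were 12.7, 11.1, 15.3 and 16.1% at day 13 and 10, 10.4, 17.5 and 7.55% at day 19. The shares of the days overlapped. MHC class II varied more between tags than the classical genes did at day 13: from 8126 to 20897 CPM, against 35438 to 39786 CPM. At day 19 class II took 6144, 17908, 5192 and 20129.6 CPM in the 4 tags, and the day-19 Ly6c2 groups were not split within tags. The classical genes took 9018 CPM in the first tag, 18664 CPM in the fourth and 34948 and 42819.5 CPM in the other two. The first and the fourth hold the droplets with Col3a1 and with most C1q, and without these they had 24383 CPM of classical genes, from 1 droplet, and 24978 CPM, from 3, and 19381 and 21258 CPM of class II. Whether class II or the classical genes varied more between the day-19 tags thus depends on these 2 droplets.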

How the data were processed

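Gene, antibody tag and multiplexing tag counts came as 1 deposited matrix per day of unique molecular identifiers (UMIs) per barcode, unnormalized counts as the authors deposited them, with 32285 genes, 138 antibody tags and 4 multiplexing tags. Per the submitters' processing notes, Cell Ranger 4.0.0, STAR 2.7.5c, bcl2fastq 2.20, Seurat and R 4.1.2 were used with mm10, with no role given. Barcodes in the 4 contig lists per day were taken as inside. All 736611 and 735849 barcodes of the matrices were read, and a barcode was kept at 5000 or more gene UMIs and at most 10% mitochondrial UMIs. Doublets were not called. Some genes of the lists are not reported here.

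The members and the 27 gene lists were chosen with earlier results of these data known. Named genes are those of the lists and the 12 highest and 12 lowest of the day contrast and of the contrast with the other Cd3-free droplets, without receptor, immunoglobulin, ribosomal, mitochondrial, Gm, Rik and sex-linked genes. Genes chosen after their values were seen are Igfbp4 and the genes of the 2 day-19 droplets.

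UMIs were summed per class and day, and log2 ratios of CPM were given exact 95% intervals for a ratio of Poisson counts. Shares have Clopper-Pearson intervals. These cover counting error only. Where a class held no UMI of a gene, 3 counts stood in for its sum. With 1 capture per day there is no test, and a gene counts as higher or lower at a 2-fold ratio among genes of at least 100 UMIs in the sums (30 in the Ly6c2 groups). Thinning used seed 17. Simulated Poisson counts with known folds were used to check the arithmetic of the ratios and intervals. They hold no spread between droplets, so they do not show how well the intervals cover it. Genes with close copies (Ly6c1 and Ly6c2, Lyz1 and Lyz2, H2-Q7, Ifit, Slfn, Clec4a and Trim30 genes) are uncertain, and Mx1, Mx2, Cxcl11 and Clec7a were not found among the symbols. Alternatives changed the depth limit, the marker minimum, the mitochondrial limit, the UMI minimum, the fold and the scaling, and left out tags or droplets in turn. Chosen after seeing the data were those that leave out the 2 day-19 droplets, the day-13 droplet with most C1q, the leading droplet of a gene or antibody tag, or the Gr1 tag, and the Ly6c2 split within tags. Python 3.11.15, numpy 2.4.6, scipy 1.17.1, pandas 2.3.3, matplotlib 3.10.9 and, for TMM, edgeR 4.0.16 in R 4.3.3 were used.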

Additional observations from a re-analysis of the deposited data

Results flagged for a closer look

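Col3a1 lay under the other droplets at day 13, with no UMI in 134 monocytes and a log2 ratio of at most -2.25 against 3 counts, and above them at day 19, at 3.05. All 143 day-19 UMIs were in 1 droplet. Igfbp4, a binding protein of insulin-like growth factors, was at -3.43 at day 13, on 3 UMIs in 2 monocytes, and at 3.04 at day 19, on 60 UMIs in 3 monocytes, 58 of them in 1. The opposite directions of the days were not tested.

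Droplets with a Cd3 UMI were not part of the comparisons. Of those outside the contig lists, 4.89% (158 of 3229, exact 95% interval 4.17 to 5.69%) at day 13 and 2.80% (31 of 1109, 1.91 to 3.94%) at day 19 met the rest of the monocyte rule. Inside the contig lists the shares were 1.34% (62 of 4630) and 1.03% (33 of 3215). The droplets outside the lists that met it had median UMIs of 22775.5 and 30985, beside 15447 and 23556 for all droplets with a Cd3 UMI there. Their Lyz2 levels were 4861 and 3093 CPM. Whether they hold 2 cells was not tested.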

How the results depend on the processing

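No paired analysis was possible because each day has 1 capture and the multiplexing tags carry no replicate number of the labels. The monocyte share of Cd3-free droplets at day 13 was 9.38% at a minimum of 10000 gene UMIs, 9.83% at a marker sum of at least 6 and 10.7% when C1q had to be under 3 UMIs. Genes higher and lower than in the other droplets on both days numbered 68 and 73 at 10000 gene UMIs, with 36 and 15 monocytes left, and 330 and 516 at a log2 ratio of 0.58. The lower ones numbered 452 at 50 UMIs per gene and 117 at 200. Genes higher and lower at day 19 numbered 13 and 120 with TMM, 79 and 144 at 50 UMIs, 13 and 38 at 200, and 154 and 265 at a log2 ratio of 0.58. Without the 2 day-19 droplets against the label, and without the day-13 droplet with most C1q as well, 11 were higher, and without the leading droplet of each gene 7 were higher and 120 lower. Leaving out in turn the droplets led by 1 tag, at any share of the tag UMIs, gave 16 to 48 higher, 41 to 127 lower, 96 to 124 above the other droplets and 158 to 244 below them, and shares of 12.2 to 14.5% at day 13 and 8.05 to 10.0% at day 19. Unthinned shares were 70.1% and 78.1% for Ccr2 and 30.6% for H2-Aa at day 13. Without the leading droplet of each antibody tag, 1 tag was higher on each day, and 1 at day 13 with Gr1 out of the totals or without the droplet that leads it. Of the list genes, 29 at day 13 and 23 at day 19 were higher in Ly6c2-rich monocytes, 4 and 9 in Ccr2-rich ones, and 5 rather than 17 were lower at day 13 when all tagged droplets were split at the median within tags, which changed the groups, the tags and the droplets at once.

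The direction of Lyz1 against the other droplets at day 13 turned to -0.74 at 10000 gene UMIs, and the cause was not tested. C1qb and C1qc turned between days, to -1.11 and -0.60, where C1q had to be under 3 UMIs, a limit that removes the counts compared. Gzmc had no UMI in the monocytes, so its ratio to the other droplets is an upper bound set by 3 stand-in counts, of 0.60 at day 13 and 0.039 at day 19 without droplets holding Trac, Trbc1 or Trbc2, and gives no direction. Col3a1 against the other droplets at day 19 turned because its only droplet was left out, to -2.37 without the 2 droplets and to between -2.59 and 5.18 over the tags left out. The 32 day-19 monocytes limit that day.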

Other observations

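Receptors for movement differed in both directions. Ccr1, a receptor for CCL3, CCL5, CCL6 and CCL9, stood at 219 CPM at day 13 and 339 CPM at day 19, against 96.1 and 94.7 CPM in the other droplets. Cxcr4, the CXCL12 receptor, reached log2 ratios of 1.18 and 0.87 and C5ar1, the receptor for complement C5a, 1.29 and 0.69, whereas Selplg, the selectin ligand PSGL-1, was at -1.19 and -0.86. Of the migration and adhesion list, 6 of 22 measured genes at day 13 and 3 of 21 at day 19 were 2-fold higher than in the other droplets and 3 and 1 lower. Between the days none of 19 differed 2-fold, beside only 1.17% of all genes higher and 3.18% lower. Over all genes 3.68% and 4.2% were higher and 13.7% and 9.69% lower than in the other droplets. Of the granule and S100 genes, 4 of 12 measured genes at day 13 and 5 of 11 at day 19 were higher and none lower. S100a10, a partner of annexin A2, stood at 1079 CPM at day 13 and 968 CPM at day 19, against 380.4 and 383 CPM in the other droplets. Slpi, a secreted inhibitor of neutrophil elastase, stood at 304 CPM at day 13 and 131 CPM at day 19, against 84.4 and 41.9 CPM in the other droplets, and was at -1.21 between the days.

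Interferon gamma response genes were 2-fold higher for 4 of 17 measured genes at day 13 and 3 of 17 at day 19, beside 3.68% and 4.2% of all genes, with 1 lower on each day. Gbp2, a guanylate-binding protein, stood at 1023 CPM at day 13 and 1117 CPM at day 19, against 521 and 432 CPM in the other droplets, and was at 0.13 between the days, whereas Gbp5, of the same family, was at -1.01. Of the transcription factors, 2 of 29 measured genes at day 13 and 2 of 28 at day 19 were higher and 5 and 6 lower, beside 13.7% and 9.69% of all genes. Batf3, a factor of cross-presenting dendritic cells, was at -2.23 and -1.91, Hif1a, the hypoxia sensor, at 0.75 and 0.88, and Spi1, the gene of the myeloid factor PU.1, at 0.45 and 0.20. Beside the same shares, stress and immediate early genes gave 1 higher and 2 lower of 19 at day 13, and 0 and 2 of 18 at day 19. Lipid handling genes gave 0 higher and 2 lower of 14 at day 13, and 1 of 11 in each direction at day 19, with Plin2, the lipid droplet coat protein, at 0.95 and 1.11. Cell cycle genes gave 4 lower of 7 at day 13 and 1 of 5 at day 19, and none higher. The lipid handling and cell cycle counts also stand beside 3.68% and 4.2% of all genes higher and 13.7% and 9.69% lower.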
